A study of Mus musculus with 50 samples.

Results

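The amino acid transporter families of the mouse oocyte were described gene by gene in single oocytes labelled as Zfp36l2 knockout or as floxed. Members were all rows whose gene symbol belongs to solute carrier families SLC1, SLC3, SLC6, SLC7, SLC36, SLC38 or SLC43, taken by the start of the symbol and not by any measured value. This gave 50 of the 16614 gene rows: 4 in SLC1, 2 in SLC3, 15 in SLC6, 12 in SLC7, 3 in SLC36, 11 in SLC38 and 3 in SLC43. The rule also took in 3 rows that are no carriers, the antisense RNAs Slc6a19os and Slc36a1os and the protein-coding neighbour Slc7a6os, and a few SLC6 members that carry monoamines or creatine.

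The knockout group was 24 oocytes labelled as conditional knockout of Zfp36l2, from 4 mice with 1, 7, 8 and 8 oocytes. The controls were floxed oocytes (26, from 4 mice with 5, 7, 7 and 7 oocytes), which carry the targetable allele. All mice were females of 5 weeks given 10 IU of PMSG, a hormone preparation that makes follicles grow, and were killed 46 hours later. Oocytes with an intact germinal vesicle, which have not resumed meiosis, were taken in medium with 5 µM milrinone, which keeps them arrested. Oocytes wrapped in cumulus cells were chosen, and granulosa cells and zona pellucida were then stripped off. The labels do not name the driver of the Cre recombinase, and knockout mouse 1 was a single oocyte.

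Amino acid carriers bring building blocks for protein, osmolytes such as glycine and taurine, and cystine for glutathione into the cell. Several SLC7 proteins are light chains that reach the plasma membrane only when disulphide-linked to an SLC3 heavy chain, so the partners and the carrier together decide which amino acids cross. In the ovary the oocyte takes up some amino acids itself and receives others from cumulus cells through gap junctions, and glycine uptake by the oocyte is known for its part in cell volume control. ZFP36L2 is a zinc finger protein that attaches to AU-rich stretches of mRNAs and speeds their decay.

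Total counts ranged from 1746007 to 6233840 per oocyte and from 4332108 to 44498770 per mouse, with the lowest sum in knockout mouse 1. Levels are given as CPM, counts scaled to a summed count of 1000000 per mouse, and as CPM per kb of transcript where genes are set against each other. CPM are relative values, so they do not show whether an oocyte held more or less mRNA in all. Zfp36l2 itself was 2.00 ± 0.806 CPM in knockout mice and 3.27 ± 0.934 CPM in floxed mice (SD, n = 4 each; adjusted p = 0.208 by edgeR), so its count does not check the labels, and knockout here means oocytes so labelled. Oocyte genes were abundant in every mouse: the 18 oocyte markers summed to 6972.0 to 8089 CPM in knockout mice and 6907 to 8613 CPM in floxed mice. All 18 were tested, and 1 was higher and 1 lower in knockout mice. The higher was Figla, at 83.7 ± 8.14 CPM in knockout mice and 50.2 ± 8.61 CPM in floxed mice (adjusted p = 0.00618 by edgeR). The lower was Mos, at 259 ± 17.0 CPM in knockout mice and 315 ± 19.5 CPM in floxed mice (adjusted p = 0.0159 by edgeR). The 25 cumulus or granulosa markers found among the gene rows summed to 680.5 to 809 CPM in knockout mice and 705 to 752 CPM in floxed mice. Single markers differed widely in level. The defining granulosa gene Foxl2 stood at 0.588 CPM in knockout mice and 0.574 CPM in floxed mice. Esr2 averaged 230 CPM in knockout mice and 212 CPM in floxed mice. Serpine2 averaged 202 CPM in knockout mice and 264 CPM in floxed mice. Of 22 such markers tested 1 was called (edgeR), while 27.6% of all genes tested were called. The same share stands beside the calls of the other marker lists. The called one was the lower Cyp11a1, a steroid-making enzyme, at 0.0337 CPM in knockout mice and 3.88 CPM in floxed mice. Of 6 blood, immune, vessel and theca markers found among the gene rows, 5 were tested and 1 was lower, the adhesion molecule gene Pecam1. Their sum was 25.5 to 44.8 CPM in knockout mice and 102 to 189 CPM in floxed mice. Most of that sum was Pecam1 alone, at 27.0 ± 8.08 CPM in knockout mice and 150 ± 39.9 CPM in floxed mice. Cd68 came next, at 3.40 CPM in knockout mice and 8.48 CPM in floxed mice, and was not called. Not every listed marker had a gene row: 25 of 28 cumulus or granulosa markers did, and 6 of 18 blood, immune, vessel and theca markers. Of the markers with a row, none was at 0 in every mouse, which says nothing of those without a row. The part of these markers in the results was not tested.

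Most transporter mRNAs did not pass the test between the genotypes. The 7 that did were 4 of 10 tested SLC7, 2 of 10 SLC38 and 1 of 2 SLC3 members. Of 40 members with enough counts for a test, 4 had higher and 3 had lower levels in knockout oocytes (edgeR quasi-likelihood test on mouse sums, Benjamini-Hochberg adjusted p under 0.05). Higher were Slc7a8, Slc38a6, Slc38a10 and Slc3a1, and lower were Slc7a7, Slc7a1 and Slc7a11. These shares, 10.0% higher and 7.5% lower, stood below those of all 15029 genes tested, of which 14.4% were higher and 13.2% lower, together 27.6%. The median log2 fold change, knockout over floxed, was 0.14 over the 40 members and -0.006 over all genes, and 25 of the 40 were above 0. The 4 knockout mice lay entirely above the 4 floxed mice for 5 members and entirely below them for 6, together 27.5% of the 40, against 31.0% of all genes. An unadjusted p under 0.05 was found for 17 members. The share of all genes at that threshold was not taken, so this count, and those by family below, show no excess. On mm10 the called members outside chromosome 14 lie at chr12:73286779-73354049 (Slc38a6), chr11:120103960-120151346 (Slc38a10), chr17:85028376-85064236 (Slc3a1), chr5:148327410-148399904 (Slc7a1) and chr3:49892526-50443614 (Slc7a11).

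The counts of called members shifted with single mice, and so did those of all genes. Without floxed mouse 2 there were 2 higher members, 4.76% of those tested, against 9.75% of all genes. Without knockout mouse 1 there were 7 higher (17.1%, against 16.4% of all genes) and 5 lower (12.2%, against 18.3%). Without floxed mouse 1 there were 6 lower members (14.3%, against 16.4%). The order of the member and all-gene shares therefore depended on the mice and the fit. Slc7a8, Slc7a7, Slc7a1 and Slc38a6 passed under each of the 16 alternative fits. A further 12 members passed under at least 1 of them, Slc6a15 under 8, Slc7a6, Slc38a11 and Slc38a3 under 4 each, and the other 8 under 1 to 3.

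**Figure D1:**
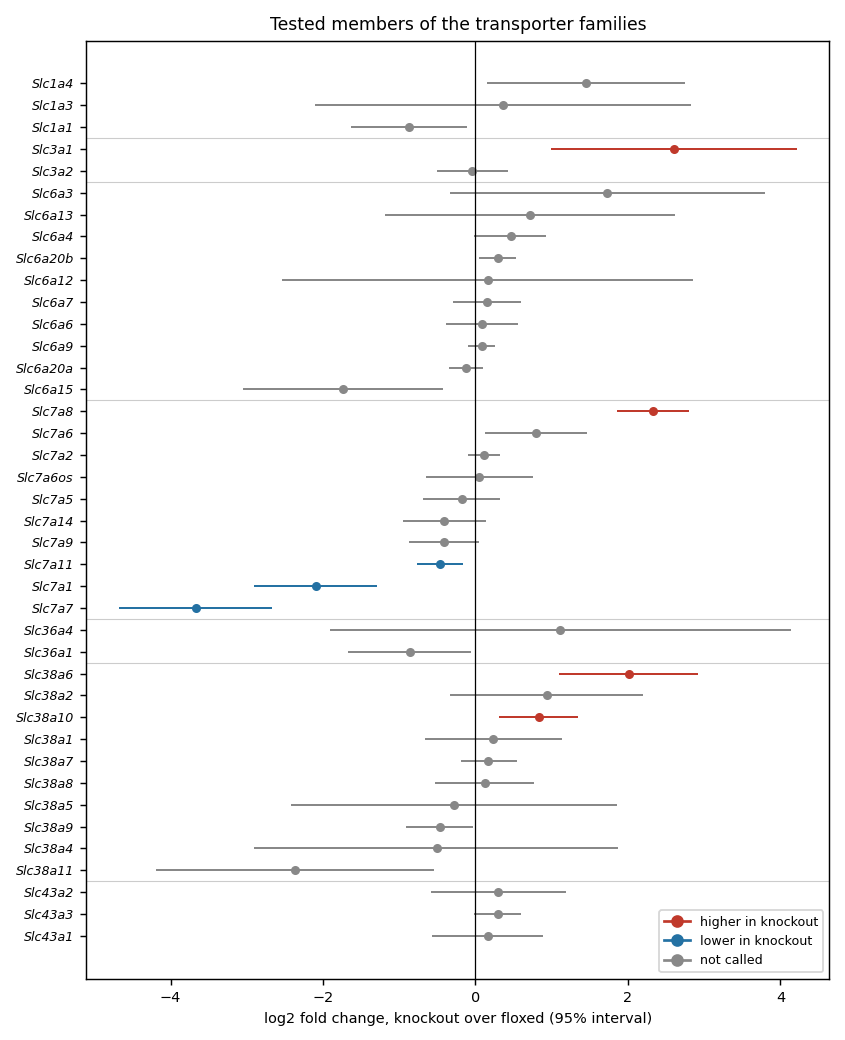
Log2 fold change, knockout over floxed, of the 40 tested members (points, with 95% intervals), grouped by family from SLC1 at the top to SLC43 at the bottom and ordered by value within each. Red marks the 4 members called higher in knockout oocytes and blue the 3 called lower. The values run from -3.67 for Slc7a7 to 2.60 for Slc3a1.

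Slc3a2 encodes the 4F2 heavy chain, which brings the light chains LAT1, LAT2, y+LAT1, y+LAT2 and xCT to the plasma membrane. Slc3a2 had 173, 134, 104 and 114 CPM in knockout mice 1 to 4, against 183, 118, 108 and 116 CPM in floxed mice 1 to 4. Mouse 1 was highest in both genotypes, and the groups overlapped throughout. The means were 131 ± 30.8 CPM in knockout mice and 131 ± 34.7 CPM in floxed mice, and the log2 fold change was -0.04 (SE 0.20; 95% interval -0.49 to 0.42; adjusted p = 0.914 by edgeR).

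Slc3a1 encodes rBAT, the heavy chain of the cystine and dibasic amino acid carrier. It was low: 4.39, 2.98, 1.78 and 1.20 CPM in knockout mice 1 to 4, against 0.100, 0.408, 0.809 and 0.248 CPM in floxed mice 1 to 4. The lowest knockout mouse stood above the highest floxed mouse. Slc3a1 had at least 1 count in 22 of 24 knockout oocytes and 9 of 26 floxed oocytes, and in oocytes thinned to 3000000 counts in 22 of 24 knockout and 7 of 23 floxed oocytes. The log2 fold change was 2.60 (SE 0.71; adjusted p = 0.0245 by edgeR). It was 3.24 without floxed mouse 3, and the adjusted p was 0.0657 without floxed mouse 2, 0.0711 without floxed mouse 4 and 0.0667 without knockout mouse 2. Of all 50-base stretches of the Slc3a1 transcript, 24.8% also lie in Prepl, transcribed from the opposite strand, and the library kit does not mark strand. Prepl averaged 159 ± 18.6 CPM in knockout mice and 155 ± 28.4 CPM in floxed mice. Reads of Slc3a1 and Prepl in the shared stretches cannot be told apart. Slc7a9, the light chain that pairs with rBAT, was 24.0 ± 5.33 CPM in knockout mice and 30.9 ± 2.75 CPM in floxed mice (adjusted p = 0.16 by edgeR).

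Slc7a8 had the smallest p of the members and was higher in every knockout mouse than in any floxed mouse. It encodes LAT2, which exchanges neutral amino acids, large and small, across the membrane as a partner of the 4F2 heavy chain. Slc7a8 had 81.5, 124, 125 and 137 CPM in knockout mice 1 to 4, against 20.3, 19.6, 29.8 and 21.0 CPM in floxed mice 1 to 4. The groups did not overlap, and neither did single oocytes: values ran from 75.6 to 180.1 CPM (median 125) in knockout oocytes and from 8.16 to 44.8 CPM (median 22.7) in floxed oocytes. The mean was 117.1 ± 24.5 CPM in knockout mice and 22.7 ± 4.78 CPM in floxed mice, a fitted 5.03-fold difference (log2 fold change 2.33, SE 0.20; adjusted p = 0.000213 by edgeR). Leaving out one mouse at a time gave log2 fold changes from 2.21 to 2.49.

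Slc7a7 moved the other way. It encodes y+LAT1, which exchanges cationic for neutral amino acids and is also a partner of the 4F2 heavy chain. Slc7a7 had 2.08, 0.467, 1.39 and 1.11 CPM in knockout mice 1 to 4, against 12.1, 13.1, 13.6 and 18.7 CPM in floxed mice 1 to 4. All 24 knockout oocytes stood below the lowest floxed oocyte, with values from 0 to 5.88 CPM (median 0.267) in knockout oocytes and from 7.32 to 25.5 CPM (median 13.8) in floxed oocytes. At least 1 count was present in 15 of 24 knockout oocytes and in 26 of 26 floxed oocytes. The log2 fold change was -3.67 (SE 0.44; adjusted p = 0.000735 by edgeR), or 12.7-fold lower in knockout oocytes. Of its 50-base stretches, 8.79% are shared in antisense with Oxa1l, which averaged 60.0 ± 7.10 CPM in knockout mice and 53.9 ± 4.91 CPM in floxed mice.

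Slc7a7 and Slc7a8 are near neighbours in the genome, both on the minus strand of chromosome 14 (mm10, 54369442 to 54417780 and 54722209 to 54781946), with 304.4 kb between them. Among the gene rows, 13 lie in the gap, all tested, of which 3 were higher and 1 lower in knockout oocytes. Over all genes tested, 14.4% were higher and 13.2% lower (edgeR), so these few calls do not set the gap apart.

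Slc7a11 was the most abundant member by CPM. It encodes xCT, which takes up cystine in exchange for glutamate and feeds glutathione synthesis. Slc7a11 had 309, 387, 389.9 and 392.3 CPM in knockout mice 1 to 4, against 408, 461, 559 and 553 CPM in floxed mice 1 to 4. The groups of mice did not overlap, with knockout mouse 1 lowest, while single oocytes did overlap: 308 to 451 CPM in knockout oocytes and 240.0 to 638 CPM in floxed oocytes. The mean was 369.6 ± 40.2 CPM in knockout mice and 495 ± 73.7 CPM in floxed mice, and the log2 fold change was -0.46 (SE 0.13; adjusted p = 0.0238 by edgeR), or 1.38-fold lower. The adjusted p was 0.0646 without floxed mouse 3 and 0.0711 without floxed mouse 4, and 0.0719 by limma on means of oocyte log2 CPM. Slc7a11 made up 15.6 ± 1.44% of the members' counts in knockout mice and 21.2 ± 2.46% in floxed mice.

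**Figure D2:**
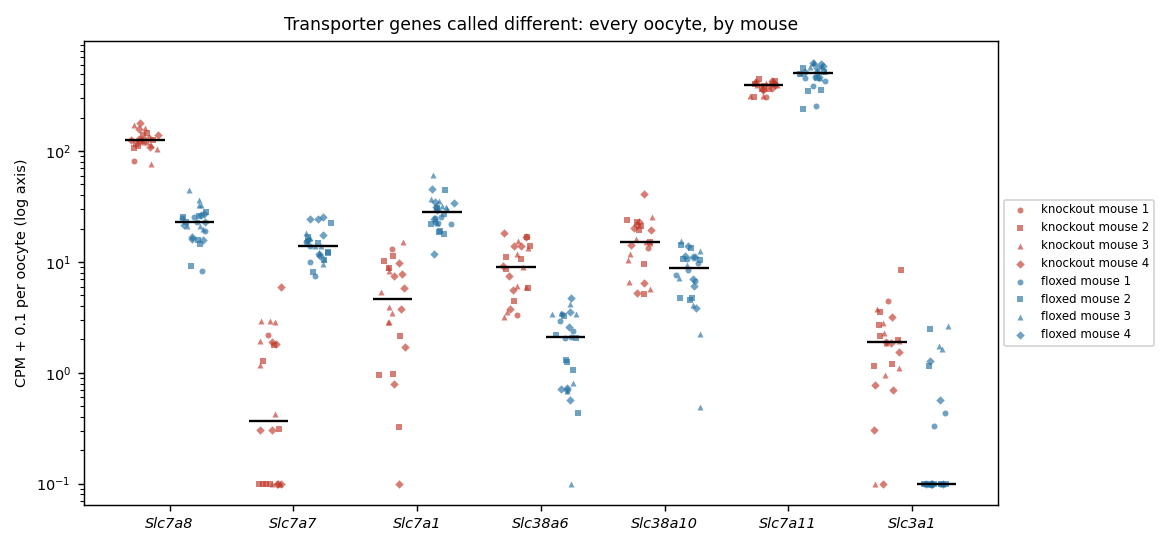
CPM + 0.1 (log axis) of each oocyte for the 7 called members, with knockout oocytes in red left of floxed oocytes in blue. The symbol shape gives the mouse and the bar the median of the oocytes of a genotype. For Slc7a8 the 24 knockout oocytes (75.6 to 180.1 CPM) lie above all 26 floxed oocytes (8.16 to 44.8 CPM), and for Slc7a7 they lie below them.

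Cystine uptake by xCT is known to be induced through the transcription factor ATF4, which binds amino acid response elements. The core TGATGNAA was searched on both strands of RefSeq promoter windows (GRCm38.p6, from 250 bases before to 50 after a gene's start), of which 37 member genes had 56. It lay in 4 of the 56 windows (7.14%), of the genes Slc7a11, Slc7a7 and Slc1a4, and in 3.97% of all 32851 windows. Slc7a11 and Slc7a7 were lower in knockout oocytes, while Slc1a4 had a log2 fold change of 1.45 and was not called by edgeR, though DESeq2 called it higher (adjusted p = 0.0492). Their windows are shown because both genes were called, with each match in capitals, Slc7a11 from chr3:50443564-50443863 and Slc7a7 from chr14:54417895-54418194, both on the minus strand.
Slc7a11: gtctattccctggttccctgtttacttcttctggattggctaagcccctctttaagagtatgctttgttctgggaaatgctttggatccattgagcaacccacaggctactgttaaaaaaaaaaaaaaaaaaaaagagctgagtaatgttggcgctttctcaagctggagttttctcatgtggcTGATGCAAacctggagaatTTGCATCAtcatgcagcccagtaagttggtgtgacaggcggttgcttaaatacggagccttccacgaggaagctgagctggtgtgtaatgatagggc
Slc7a7: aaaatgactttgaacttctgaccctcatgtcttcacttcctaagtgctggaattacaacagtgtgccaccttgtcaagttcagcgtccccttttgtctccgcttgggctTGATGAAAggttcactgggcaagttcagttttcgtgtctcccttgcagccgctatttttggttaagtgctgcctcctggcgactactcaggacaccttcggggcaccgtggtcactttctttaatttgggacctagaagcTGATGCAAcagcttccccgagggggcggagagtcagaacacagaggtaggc
Each window holds 2 matches, starting at bases 185 and 204 of the Slc7a11 window and 110 and 250 of the Slc7a7 window. The 2 windows of Slc7a7 with a match overlap, and the match in the one not shown is the site at base 250, counted again. The core of the antioxidant response element, TGACNNNGC on both strands, lay in 10 of the 56 member windows (17.9%) and in 12.4% of all windows, and Slc7a1 was the only called member with it. No match says only that these letters are not in the windows searched.

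The other light chains of the 4F2 heavy chain did not pass the edgeR test on all mice. Slc7a6, which encodes y+LAT2, had 22.9, 14.3, 13.5 and 14.3 CPM in knockout mice 1 to 4, against 12.7, 6.08, 8.27 and 9.33 CPM in floxed mice 1 to 4. The groups did not overlap, with mouse 1 highest in both genotypes, and the log2 fold change was 0.79 (SE 0.29; adjusted p = 0.0706 by edgeR). Slc7a6 did pass by DESeq2 (adjusted p = 0.0259), and by edgeR without floxed mouse 1 (adjusted p = 0.0365) and without mouse 1 of both genotypes (adjusted p = 0.0238). Slc7a5, which encodes LAT1, the carrier of large neutral amino acids such as leucine, averaged 20.1 ± 5.11 CPM in knockout mice and 22.4 ± 3.29 CPM in floxed mice (adjusted p = 0.576 by edgeR).

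Per kb of transcript, the 5 light-chain mRNAs together stood at 79.4 ± 9.24 CPM per kb in knockout mice and 74.6 ± 9.12 CPM per kb in floxed mice, but in other proportions. Slc7a8 made up 30.4, 37.1, 36.1 and 39.6% of this pool in knockout mice 1 to 4, against 7.58, 7.06, 8.76 and 6.29% in floxed mice 1 to 4. Slc7a11 made up 51.1, 51.1, 49.8 and 50.1% in knockout mice 1 to 4, against 67.5, 73.4, 72.8 and 73.5% in floxed mice 1 to 4. The share of Slc7a7 was 0.766 ± 0.501% in knockout mice and 8.82 ± 1.25% in floxed mice. No share overlapped between the genotypes for these 3 genes. The pool was 1.48 ± 0.449 times the level of Slc3a2 in knockout mice and 1.40 ± 0.421 times in floxed mice, lowest in mouse 1 of both genotypes. Shares of one pool depend on each other, so they are a description with no test.

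**Figure D3:**
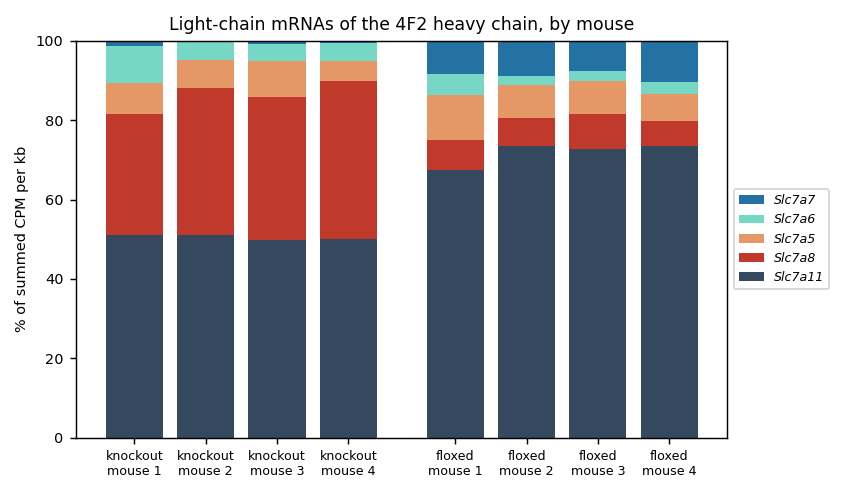
Share of each light-chain mRNA in the summed CPM per kb of the 5 partners of the 4F2 heavy chain, 1 bar per mouse, knockout mice 1 to 4 left of floxed mice 1 to 4. Slc7a8 (red) takes 30.4 to 39.6% in knockout mice and 6.29 to 8.76% in floxed mice, and Slc7a7 (blue) 0.261 to 1.45% in knockout mice and 7.51 to 10.5% in floxed mice.

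Sorted by substrate, the pair of light chains for neutral amino acids, LAT1 and LAT2, summed to 34.4 ± 6.30 CPM per kb in knockout mice and 11.9 ± 1.75 CPM per kb in floxed mice. LAT2 mRNA was 83.1 ± 4.24% of that sum in knockout mice and 46.5 ± 4.77% in floxed mice. The y+LAT pair summed to 4.91 ± 1.43 CPM per kb in knockout mice and 9.01 ± 1.46 CPM per kb in floxed mice, of which y+LAT1 mRNA was 11.4 ± 4.29% in knockout mice and 73.0 ± 7.62% in floxed mice.

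CAT1 and CAT2 carry arginine and lysine without a heavy chain, and of their mRNAs 1 was called. Slc7a1, which encodes CAT1, had 12.9, 4.97, 6.36 and 4.59 CPM in knockout mice 1 to 4, against 23.5, 26.7, 35.7 and 29.5 CPM in floxed mice 1 to 4. The groups did not overlap, and 22 of 24 knockout oocytes stood below the lowest floxed oocyte. The log2 fold change was -2.09 (SE 0.35; adjusted p = 0.00297 by edgeR), or 4.26-fold lower in knockout oocytes, and it ran from -2.53 to -1.97 when single mice were left out. Slc7a2, which encodes CAT2, was far more abundant, with 350.2, 312, 293 and 334 CPM in knockout mice 1 to 4, against 266, 286, 314 and 297 CPM in floxed mice 1 to 4. Its groups overlapped, and the log2 fold change was 0.11 (SE 0.09; 95% interval -0.09 to 0.31; adjusted p = 0.399 by edgeR). CAT1 and CAT2 mRNA together were 56.7 ± 4.66 CPM per kb in knockout mice and 54.2 ± 4.22 CPM per kb in floxed mice, and Slc7a1 made up 1.74 ± 0.810% of that in knockout mice and 7.37 ± 0.745% in floxed mice. Slc7a3, a further cationic carrier, held counts in 1 of 24 knockout and 3 of 26 floxed oocytes and was not tested. Slc7a14, which encodes a lysosomal member of the family, was not called (adjusted p = 0.229 by edgeR), and Slc7a4 was not tested.

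Of 10 SLC38 members tested, 2 were higher (edgeR), with an unadjusted p under 0.05 for 4, and DESeq2 also called Slc38a11 lower and Slc38a3 higher. This family holds the sodium-coupled carriers of glutamine and other small neutral amino acids, and some members that sit on lysosomes. Slc38a6 had 3.23, 10.1, 8.63 and 10.8 CPM in knockout mice 1 to 4, against 2.50, 1.47, 2.14 and 1.92 CPM in floxed mice 1 to 4. Knockout mouse 1 was nearest to the floxed mice, yet the groups did not overlap, and 19 of 24 knockout oocytes stood above the highest floxed oocyte. The log2 fold change was 2.01 (SE 0.40; adjusted p = 0.00608 by edgeR), or 4.02-fold. Slc38a10 had 13.2, 16.6, 13.5 and 19.3 CPM in knockout mice 1 to 4, against 8.61, 8.98, 7.33 and 9.45 CPM in floxed mice 1 to 4. These groups did not overlap either, and the log2 fold change was 0.83 (SE 0.23; adjusted p = 0.0232 by edgeR), or 1.78-fold. Of the 50-base stretches of Slc38a10, 7.02% are shared in antisense with Gm11769, which has no gene row here. The adjusted p of Slc38a10 was 0.0535 without floxed mouse 2, 0.0649 without floxed mouse 3, 0.0812 without knockout mouse 2 and 0.0898 without knockout mouse 4.

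Slc38a9, the lysosomal arginine sensor of the mTORC1 pathway, had 46.6, 78.8, 79.4 and 75.0 CPM in knockout mice 1 to 4, against 79.6, 82.2, 109 and 108 CPM in floxed mice 1 to 4. Its highest knockout mouse lay just below its lowest floxed mouse, and the difference did not pass (log2 fold change -0.47, SE 0.19; adjusted p = 0.0954 by edgeR). Slc38a11 was near its detection limit at 0.237 ± 0.228 CPM in knockout mice and 1.40 ± 0.977 CPM in floxed mice (log2 fold change -2.37, SE 0.80; adjusted p = 0.0546 by edgeR). Slc38a7, a lysosomal glutamine carrier, and Slc38a8 differed little, at 53.6 ± 5.76 and 44.7 ± 18.9 CPM in knockout mice and 46.3 ± 7.97 and 40.0 ± 8.61 CPM in floxed mice. The classical glutamine carriers SNAT1 and SNAT2 were not called: Slc38a1 stood at 21.3 ± 3.77 CPM in knockout mice and 17.6 ± 8.75 CPM in floxed mice, and Slc38a2 at 2.07 ± 1.503 CPM in knockout mice and 1.09 ± 0.168 CPM in floxed mice. Slc38a3, which is also a cumulus marker, had counts in 6 of 24 knockout and 2 of 26 floxed oocytes and was too low to be tested in the edgeR fit. Slc38a4 and Slc38a5 were not called.

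None of the 10 SLC6 members tested passed (edgeR), with an unadjusted p under 0.05 for 3 and 1 called by DESeq2, Slc6a15. The abundant members included carriers of glycine, taurine, proline and serotonin. Slc6a9, which encodes the glycine carrier GLYT1, had 230.4, 233, 252 and 233 CPM in knockout mice 1 to 4, against 214, 238, 206 and 214 CPM in floxed mice 1 to 4. These ranges overlapped, and the log2 fold change was 0.08 (SE 0.07; 95% interval -0.08 to 0.25; adjusted p = 0.448 by edgeR). Of its 50-base stretches, 38.9% are shared in antisense with Ccdc24, which averaged 5.84 ± 1.33 CPM in knockout mice and 2.76 ± 1.08 CPM in floxed mice.

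The taurine carrier Slc6a6 averaged 140.1 ± 28.2 CPM in knockout mice and 128 ± 33.8 CPM in floxed mice (adjusted p = 0.782 by edgeR). The proline carriers Slc6a20a and Slc6a20b share sequence, 23.5% of the 50-base stretches of Slc6a20a and 10.1% of those of Slc6a20b, so reads could be split between them. Slc6a20a had 104, 87.6, 97.4 and 95.8 CPM in knockout mice 1 to 4, against 101, 106, 99.3 and 99.1 CPM in floxed mice 1 to 4, and did not pass (log2 fold change -0.12, SE 0.09; adjusted p = 0.376 by edgeR). Slc6a20b averaged 162 ± 21.2 CPM in knockout mice and 129.5 ± 6.28 CPM in floxed mice (adjusted p = 0.0659 by edgeR). Slc6a4, the serotonin transporter, had 67.9, 74.9, 99.7 and 97.6 CPM in knockout mice 1 to 4, against 50.2, 46.6, 79.7 and 64.7 CPM in floxed mice 1 to 4. Its groups overlapped, and the log2 fold change was 0.46 (SE 0.20; adjusted p = 0.121 by edgeR).

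Slc6a15, which encodes a carrier of branched-chain amino acids and proline, showed the widest gap in mean CPM of the members that were not called. It had 3.46, 21.2, 34.5 and 58.4 CPM in knockout mice 1 to 4, against 64.7, 95.9, 114 and 114 CPM in floxed mice 1 to 4. The groups did not overlap, but the knockout mice spread over more than a 10-fold range. The log2 fold change was -1.74 (SE 0.58; adjusted p = 0.051 by edgeR). Slc6a15 was named after its values were seen. The remaining members tested, Slc6a3, Slc6a7, Slc6a12 and Slc6a13, were not called, and Slc6a2, Slc6a5, Slc6a8, Slc6a14 and Slc6a19os were not tested.

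No member of SLC1, SLC36 or SLC43 passed (edgeR), with an unadjusted p under 0.05 for 2, 1 and 1 of them. By DESeq2, 3 were called, Slc1a1, Slc1a4 and Slc36a1. Slc1a1, the glutamate and cysteine carrier EAAT3, averaged 4.21 ± 1.06 CPM in knockout mice and 7.57 ± 2.34 CPM in floxed mice (log2 fold change -0.87; adjusted p = 0.0773 by edgeR). Slc1a4, the carrier of alanine, serine and cysteine ASCT1, averaged 4.33 ± 2.49 CPM in knockout mice and 1.53 ± 0.580 CPM in floxed mice (log2 fold change 1.45; adjusted p = 0.0891 by edgeR). The proton-coupled lysosomal carrier Slc36a1 averaged 5.54 ± 1.95 CPM in knockout mice and 9.90 ± 3.42 CPM in floxed mice (log2 fold change -0.86; adjusted p = 0.0995 by edgeR). Slc1a3, Slc36a4, Slc43a1 and Slc43a2 were not called either, and Slc1a5 and Slc36a1os were not tested.

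Slc43a3, a member known to carry purine nucleobases, was among the most abundant, with 150.0, 212, 201 and 219.6 CPM in knockout mice 1 to 4, against 138, 148, 161 and 173 CPM in floxed mice 1 to 4. Knockout mouse 1, the single oocyte, lay within the floxed range and the other knockout mice above it, so that 22 of 24 knockout oocytes stood above the highest floxed oocyte. The log2 fold change was 0.30 (SE 0.13; adjusted p = 0.12 by edgeR), and without knockout mouse 1 it was 0.36 with an adjusted p of 0.0157.

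Per kb of transcript, the mean over all mice ran from 0.0127 CPM per kb for Slc6a2 to 80.8 CPM per kb for Slc7a6os. The row with the highest level per kb was Slc7a6os, which is no carrier, at 83.1 CPM per kb in knockout mice and 78.5 CPM per kb in floxed mice. Slc7a6os had 155, 89.7, 82.1 and 87.7 CPM in knockout mice 1 to 4, against 164, 90.2, 70.4 and 66.7 CPM in floxed mice 1 to 4, with mouse 1 high in both (adjusted p = 0.925 by edgeR). Next came Slc43a3, Slc6a9, Slc3a2, Slc7a2, Slc7a11, Slc6a20a and Slc6a4. Slc7a8 stood at 28.7 CPM per kb in knockout mice and 5.55 CPM per kb in floxed mice. All members together took 0.236 ± 0.00494% of counts in knockout mice and 0.233 ± 0.0126% in floxed mice.

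**Figure D4:**
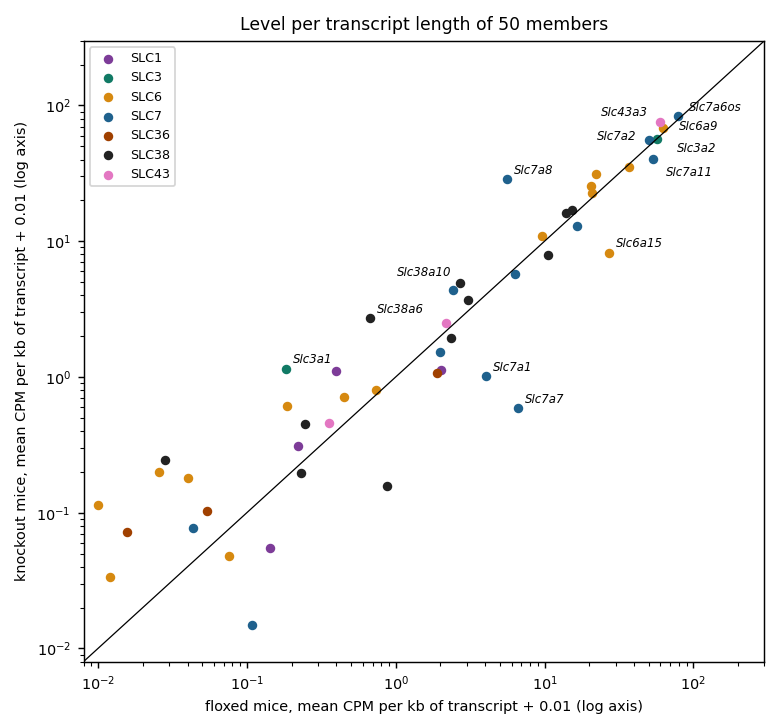
Mean CPM per kb of transcript + 0.01 of the 50 members in knockout mice (vertical) against floxed mice (horizontal), both on log axes, coloured by family, with the line of equal values. Slc7a8 (28.7 against 5.55) and Slc38a6 lie above the line, Slc7a7 (0.579 against 6.59), Slc7a1 and Slc6a15 below it, and the most abundant members close to it.

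Every oocyte held most of the members. With all oocytes thinned to 3000000 counts, leaving out 3 shallower floxed oocytes, 35.2 ± 1.37 members had a count in an average oocyte of knockout mice and 34.6 ± 0.522 in floxed mice (SD, n = 4 mice each). Without thinning the values were 35.5 ± 1.43 in knockout mice and 34.4 ± 0.504 in floxed mice. The 10 members not tested each averaged under 1 CPM in both genotypes.

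The spread between oocytes of one mouse, as the coefficient of variation of CPM, was close to that of other genes of like level. Its median was 37.8% for 7 members at 10 to 30 CPM and 37.8% for 2466 genes at that level, and 13.8% for 8 members at 100 CPM or more and 11.5% for 3399 genes. Slc38a1 varied most, with a median over mice of 74.1%. The median coefficient for Slc7a1 was 78.8% in knockout mice and 34.3% in floxed mice, and for Slc7a8 it was 16.3% in knockout mice and 33.5% in floxed mice. For both genes the genotype with the lower level had the larger spread. Slc7a11 and Slc38a10 did not follow this. The coefficient for Slc7a11, lower in knockout mice, was 12.5% in knockout mice and 16.5% in floxed mice. For Slc38a10, higher in knockout mice, it was 47.6% in knockout mice and 43.8% in floxed mice. The other called members averaged under 10 CPM, and of these Slc7a7 and Slc3a1 did follow it. Slc7a7 had 87.3 to 165.6% in knockout mice 2 to 4 and 23.6 to 34.4% in floxed mice. Slc3a1 had 65.8 to 87.5% in knockout mice 2 to 4 and 130.6 to 192.4% in floxed mice. Ranges overlapped for Slc38a6, at 43.0 to 54.8% in knockout mice 2 to 4 and 22.8 to 92.0% in floxed mice.

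Because ZFP36L2 binds AU-rich elements, the 3′ untranslated region of each member was searched on the sense strand for TATTTAT, a core of such elements. At least 1 match lay in 13 of 40 tested members (32.5%) and in 27.7% of all 13802 tested genes with a 3′ untranslated region. The median length of this region was 1580.5 bases in the tested members and 1003 bases in all these genes. A longer region has more room for a match, so the 2 shares are not matched for length. Among the members it lay in 1 of 4 called higher (Slc38a10), in 0 of 3 called lower and in 12 of 33 not called. The windows are shown for the called member and for every other member with a match and an adjusted p under 0.1, read 5′ to 3′ from GENCODE transcripts of mm10, with the motif in capitals. The position, counted from 1 at the first base of the untranslated region, is 1017 for Slc38a10, 748 and 780 for Slc6a15, 2829 for Slc6a20b, 961 for Slc7a6, 679 for Slc1a1, and 249 and 6172 for Slc38a9.
Slc38a10: ctcttgaaataTATTTATtacaattaaat
Slc6a15, site 1: agtctacttaaTATTTATtgtggttttga
Slc6a15, site 2: cacttatagtaTATTTATataatatactt
Slc6a20b: gcttttagaaaTATTTATggataacataa
Slc7a6: ctgtatgtcatTATTTATtgatatttaat
Slc1a1: atatgtgtgtaTATTTATtattttcatgt
Slc38a9, site 1: gatcatactgaTATTTATgttaagttagg
Slc38a9, site 2: aaggtaacatcTATTTATgttctgtgtat
Over all 13 tested members with a match the log2 fold change ran from -1.74 to 1.73, and it was above 0 for 8 of them. A match is a description of the sequence and not a shown binding site.

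The genes that sense amino acids or handle the carriers were read from the same fit. The 5 lists, written with earlier results of these data known, held 110 tested genes that are not members. Of these 24 were higher (21.8%) and 8 lower (7.27%), against 14.4% and 13.2% of all genes (edgeR). The same shares of all genes stand beside the counts of each list below, which are small. Without knockout mouse 2 there were 12 higher (10.9%, against 8.89% of all genes in that fit), without floxed mouse 2 there were 14 (12.6%, against 9.75%), and without knockout mouse 3 there were 15 (13.6%, against 9.02%). Without knockout mouse 1 there were 15 lower (13.5%, against 18.3%).

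Of the 40 tested genes of the mTORC1 pathway, which senses amino acids on lysosomes, 9 were higher and 2 lower, with a median log2 fold change of 0.10. Fnip2, a partner of folliculin, had 22.4, 30.9, 22.7 and 21.9 CPM in knockout mice 1 to 4, against 4.36, 7.06, 7.49 and 8.49 CPM in floxed mice 1 to 4 (log2 fold change 1.79, SE 0.27; adjusted p = 0.00178 by edgeR). Seh1l, a subunit of the GATOR2 complex, averaged 142 ± 11.2 CPM in knockout mice and 84.4 ± 14.6 CPM in floxed mice (adjusted p = 0.00351). Eif4ebp1, a translation repressor that mTORC1 phosphorylates, averaged 22.0 ± 5.68 CPM in knockout mice and 5.44 ± 4.13 CPM in floxed mice (adjusted p = 0.0144). Deptor, an inhibitor of mTOR, was lower, at 205 ± 18.2 CPM in knockout mice and 275 ± 4.80 CPM in floxed mice (adjusted p = 0.00332). The groups of mice did not overlap for these 4 genes, which were picked by smallest p, and did not overlap for 31.0% of all genes.

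Of 29 tested genes of the ATF4 response to amino acid shortage, 7 were higher and 2 lower, with a median log2 fold change of 0.01. The called enzymes of serine synthesis and use went both ways, and the called enzyme of proline synthesis was lower. Psat1 of serine synthesis and Pycr1 of proline synthesis were not called (adjusted p = 0.396 and 0.358 by edgeR). Aldh18a1, which starts proline synthesis, had 9.93, 6.11, 12.0 and 14.4 CPM in knockout mice 1 to 4, against 40.1, 62.5, 64.3 and 48.5 CPM in floxed mice 1 to 4 (log2 fold change -2.38, SE 0.29; adjusted p = 0.000755 by edgeR). Phgdh, the first enzyme of serine synthesis, was lower too, at 19.9 ± 6.90 CPM in knockout mice and 53.2 ± 7.07 CPM in floxed mice (adjusted p = 0.0032). Psph, the last one, was higher, at 15.4 ± 3.56 CPM in knockout mice and 4.83 ± 1.40 CPM in floxed mice (adjusted p = 0.00367), and so was Shmt2, which makes glycine from serine in mitochondria, at 159 ± 22.6 CPM in knockout mice and 95.2 ± 10.7 CPM in floxed mice (adjusted p = 0.00311). Atf4 itself, named after its values were seen, averaged 209 ± 25.2 CPM in knockout mice and 128 ± 34.7 CPM in floxed mice (log2 fold change 0.67, SE 0.18; adjusted p = 0.0222 by edgeR). The adjusted p of Atf4 lay between 0.0555 and 0.0957 without floxed mouse 4 or any 1 of the 4 knockout mice.

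The genes that act on SLC7 and SLC3 carriers, or on other carriers by membrane traffic and phosphorylation, had 5 higher and 3 lower of 15 tested. Nedd4l and Nedd4 encode related ubiquitin ligases that remove transporters from the membrane, and they moved in opposite directions. Nedd4l averaged 36.4 ± 15.9 CPM in knockout mice and 173 ± 33.7 CPM in floxed mice (log2 fold change -2.28, SE 0.27; adjusted p = 0.000735 by edgeR). Nedd4 averaged 149 ± 31.8 CPM in knockout mice and 51.8 ± 11.01 CPM in floxed mice (log2 fold change 1.49, SE 0.20; adjusted p = 0.00124). Stk39, a kinase that controls ion carriers, had 0.231, 1.34, 0.742 and 1.51 CPM in knockout mice 1 to 4, against 10.6, 25.2, 39.2 and 27.2 CPM in floxed mice 1 to 4 (log2 fold change -4.63, SE 0.54; adjusted p = 0.000617). Tmem27, which encodes collectrin, a protein needed by SLC6 amino acid carriers in the kidney, averaged 0.904 ± 0.443 CPM in knockout mice and 10.9 ± 3.76 CPM in floxed mice (log2 fold change -3.74; adjusted p = 0.00111).

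Of 11 tested genes of glutathione synthesis and turnover, 2 were higher (edgeR). Ggt1, which breaks down glutathione outside the cell, averaged 93.8 ± 8.37 CPM in knockout mice and 61.8 ± 6.01 CPM in floxed mice (adjusted p = 0.00609), and the peptidase gene Cndp2 averaged 17.98 ± 4.76 CPM in knockout mice and 7.34 ± 1.80 CPM in floxed mice (adjusted p = 0.0104). Gclc and Gclm, the subunits of the rate-limiting enzyme, were not called (adjusted p = 0.464 and 0.69). Of 17 tested genes listed as other carriers, outside the families by symbol and not all of them shown to carry amino acids, 1 was higher and 1 lower. The mitochondrial aspartate and glutamate carrier Slc25a13 had 1.62, 5.32, 13.4 and 20.6 CPM in knockout mice 1 to 4, against 49.6, 79.3, 116 and 80.3 CPM in floxed mice 1 to 4, with no overlap (log2 fold change -2.97, SE 0.59; adjusted p = 0.00609, and -3.56 without knockout mouse 4). Spns1, a lysosomal carrier, averaged 14.0 ± 3.89 CPM in knockout mice and 4.64 ± 1.64 CPM in floxed mice (adjusted p = 0.0101).

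**Figure D5:**
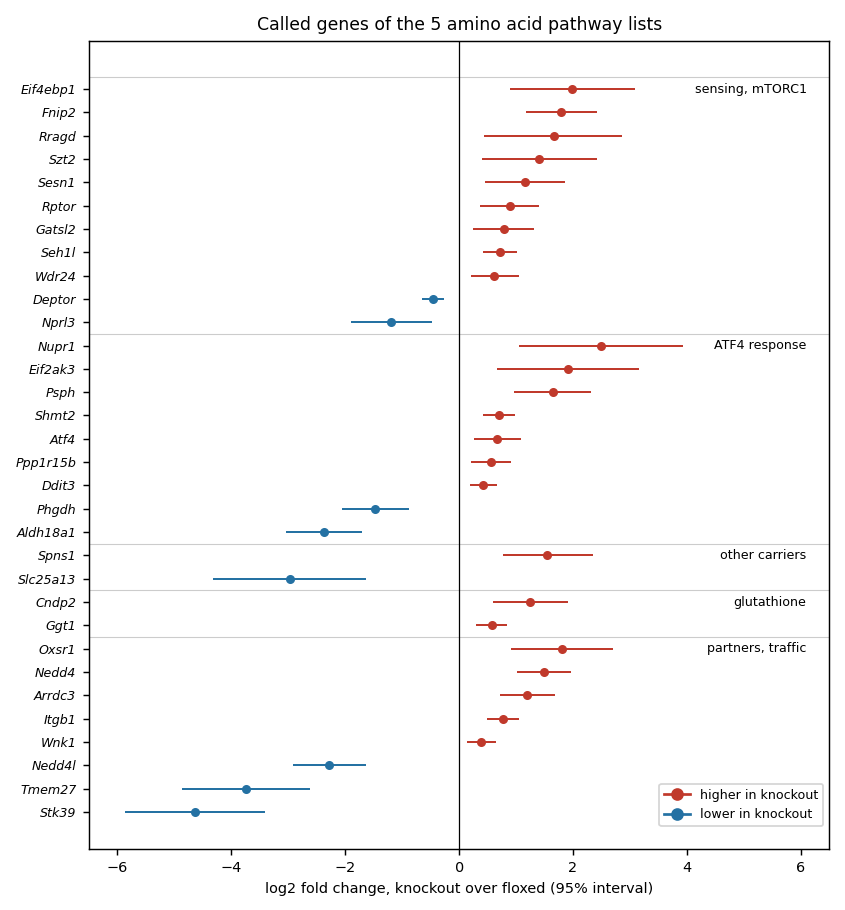
Log2 fold change, knockout over floxed, of the called genes of the 5 lists (points, with 95% intervals), red for the 24 higher and blue for the 8 lower in knockout oocytes. Each block is a list, ordered by value, and the values run from -4.63 for Stk39 to 2.49 for Nupr1.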

How the data were processed

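RNA of single oocytes was amplified and made into libraries with a SMARTer kit, which marks neither strand nor molecule, per the labels' protocols. The authors deposited 1 table of read counts, not normalized, for 16614 genes and 50 oocytes. STAR and mm10 are named in the submitters' processing notes; no source used here gives the counting tool or its treatment of reads with several places. All 50 columns were matched to samples by name or title.

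Counts were summed per mouse, since oocytes of 1 mouse are not independent, so p-values measure the spread between mice. edgeR 4.0.16 (TMM, minimum count 10, robust quasi-likelihood test, genotype only) was fitted to 15029 genes with Benjamini-Hochberg adjustment. Transcript lengths and 3′ untranslated regions came from GENCODE M21, which matched 16350 rows by accession and 186 by symbol. On simulated data with 83 genes changed 4-fold, 58 changed 2-fold and 59 changed 1.5-fold, the edgeR fit gave 2 false calls. It recovered 69.9% of the 4-fold, 36.2% of the 2-fold and 5.08% of the 1.5-fold changes. Far fewer genes were changed there than were called in the data, so these shares do not give the sensitivity of the real fit. No 2 oocytes of a mouse agreed within sampling noise.

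Alternatives were DESeq2 1.42.0, edgeR with RLE in place of TMM scaling, limma 3.58.1 on oocyte means, other filters and a replicate block. The others left out mice, or the knockout oocytes numbered 8. Members and lists were chosen with earlier results of these data known. Described in full were the called members, the 8 highest per kb, both heavy chains and, from each list, the 4 called genes (or fewer) of smallest p.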

Additional observations from a re-analysis of the deposited data

Results flagged for a closer look

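In 10 of 74 groups of 4 mice looked at, 1 mouse stood far from the other 3, and chance gives about 1 in 20 such groups. Mouse 1, the single oocyte in the knockout group, was the distant one in 4 of them: Slc7a11 at 309 CPM, Nedd4 at 102 CPM, Slc7a6os at 155 CPM and Mos at 284 CPM, all in knockout mouse 1. Floxed mouse 1 stood apart for Slc3a2 at 183 CPM and for Pecam1 at 91.1 CPM. Knockout mouse 2 stood apart for Fnip2 at 30.9 CPM. Knockout mouse 3 stood apart for Slc6a9 at 252 CPM and for Cyp11a1, with 0.135 CPM against 0 CPM in the other knockout mice. Floxed mouse 3 stood apart for Slc7a8 at 29.8 CPM, the highest of the floxed mice and below every knockout mouse.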

How the results depend on the processing

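Slc7a8, Slc7a7, Slc7a1 and Slc38a6 were called under all 16 alternatives. Over 37 named genes and 16 alternatives no log2 fold change of a called gene changed sign, 571 values kept their side of the threshold, 17 lost and 4 gained a call. Higher members numbered 4 (10.0%, against 14.4% of all genes), with 7 by DESeq2 (14.9%, against 17.2%), 8 of 40 with a replicate block (against 19.1%), 8 without mouse 1 of both genotypes (19.5%, against 20.8%), and 2 to 7 when leaving out 1 mouse. Lower members numbered 3 (7.5%, against 13.2%), with 7 by DESeq2 (14.9%, against 17.0%), 7 with the block (17.5%, against 19.6%), 8 without mouse 1 of both genotypes (19.5%, against 23.1%), and 2 to 6 when leaving out 1 mouse. For the 110 list genes, 24 higher became 12 to 24 when leaving out 1 mouse. The 8 lower (7.27%) became 13 by DESeq2 (11.6%), 20 with the block (18.2%), 19 without mouse 1 of both genotypes (17.4%), and 7 to 15 when leaving out 1 mouse. The cause of these shifts was not tested. Whether mouse numbers pair the samples is not given by the labels; deviations of same-numbered mice correlated at 0.317, -0.003, 0.248 and 0.181, so not all pairs deviated together, and the fit without the block was kept. Knockout mouse 2 and floxed mice 2 and 4 correlated best with another number. With the block 8 more members passed, with edgeR adjusted p of 0.00349 for Slc6a15, 0.00906 for Slc6a4, 0.0147 for Slc38a9, 0.0164 for Slc43a3, 0.0232 for Slc7a6, 0.0286 for Slc38a11, 0.0332 for Slc36a1 and 0.0397 for Slc6a20b. Ddit3, a target of ATF4 named after its values were seen, averaged 123 ± 5.82 CPM in knockout mice and 89.6 ± 8.54 CPM in floxed mice (edgeR adjusted p = 0.013), and missed the threshold without knockout mouse 2 or 3. The members' summed share of counts differed by 0.00314 percentage points, 0.00518 as a mean over oocytes. Depth limits members under 1 CPM, of which 10 could not be tested.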
